A study of Mus musculus with 8 samples.

Results

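The 4 wild-type arrays of a mouse heart series of 8 arrays were compared, 2 from hearts exposed to PE and 2 from untreated hearts, across 19938 genes. The arrays were chosen by their titles. Each gene was read by 1 probe set annotated with exactly 1 symbol, and of several such probe sets the brightest on average across the series was kept. Wild-type mice on the C57Bl6 background, aged 9 weeks, were either controls (arrays 1 and 2) or had received PE for 5 days (arrays 3 and 4), at 100 mg/kg daily from an osmotic pump under the skin. The remaining 4 arrays came from mice of the same strain and age that carry S105A, a serine-to-alanine substitution in the transcription factor GATA4, untreated (arrays 5 and 6) or given PE (arrays 7 and 8). Here they entered the estimate of the spread and a closing comparison. Each array is titled as a separate individual. The labels spell PE out as pseudoephedrine without settling whether another adrenergic agonist of that abbreviation was meant. Controls are called untreated in the titles and saline in the protocol, and the tissue is given both as whole heart and as ventricle. Values are log2 RMA expression values, differences are PE minus untreated, and the number of arrays limits the precision.

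Adrenergic agonists given by pump raise the workload of the heart and act on receptors of cardiomyocytes, fibroblasts and vessels. Heart muscle cells under such stress enlarge and re-express genes of the fetal heart, among them beta myosin heavy chain and the natriuretic peptides. The interstitium gains matrix-producing fibroblasts and macrophages when injury or pressure persists, and the adult programme of fatty acid oxidation is often lowered in failing muscle. The tissue was measured in bulk, so fewer cells of a type and less RNA per cell cannot be told apart.

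The PE arrays were unlike each other, and array 3 stood apart from the other wild-type arrays. On the first principal component of all 8 arrays, which held 69.5% of the variance, array 3 lay at 53.3 and array 4 at -0.415. The 4 untreated arrays of both genotypes lay between -20.8 and -16.1. The S105A PE arrays also lay apart from each other, array 7 at 25.1 and array 8 at -5.0. Arrays 3 and 4 differed by at least 2-fold in 703 genes (3.53%), against 34 genes (0.171%) for untreated arrays 1 and 2. Array 3 had 1395 genes at least 1.5-fold above both untreated arrays and 1072 at least 1.5-fold below, whereas array 4 had 146 above and 30 below. The cardiomyocyte identity genes Tnnt2 and Actc1 were high in all 4 hearts. Tnnt2, cardiac troponin T, read 13.75 and 13.77 untreated and 13.83 and 13.77 with PE. Actc1, cardiac alpha-actin, read 14.06, 14.06, 14.12 and 14.07. Another such gene, Myh6, differed from the untreated mean by -0.49 in array 3 and -0.04 in array 4. The mean of 19 adult sarcomere genes was 12.63 and 12.67 untreated, 12.40 in array 3 and 12.71 in array 4. Untreated array 2 stood out in neutrophil genes, the mean of 13 markers being 6.28 there against 5.27 in array 1 and 5.23 and 5.45 in the PE hearts. Retnlg, a secreted neutrophil product named after its values were seen, read 4.53, 7.10, 4.54 and 4.91 in arrays 1 to 4. Each PE array is therefore given separately throughout.

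The first question was which genes differed between PE and untreated wild-type hearts. By limma with Benjamini-Hochberg adjustment over all 19938 genes, Myh7 alone passed an adjusted p of 0.05 (0.00502% of genes), while 2342 genes (11.7%) stood below 0.05 before adjustment. With a difference of at least 1.5-fold and an unadjusted p under 0.01, 95 genes (0.476%) lay higher and 68 (0.341%) lower. Leaving out array 4 raised these counts to 1354 and 1181, and leaving out array 3 gave 66 and 31. Without either untreated wild-type array the higher genes numbered 42 (array 1 dropped) and 48 (array 2 dropped), and the lower genes 77 and 30. Dropping an untreated S105A array, 5 or 6, gave 53 higher and 37 lower, and dropping 7 or 8 gave 156 and 50. A gene is called separated below where the gap between the groups, from the nearer PE array to the nearer untreated array, was at least 1.5-fold. Separated genes numbered 118 upward (0.592%) and 21 downward (0.105%), and without any minimum gap 4525 genes (22.7%) lay higher and 4694 (23.5%) lower in both PE arrays. An exact permutation test of 2 against 2 arrays cannot give a two-sided p below 0.333, so separation is used as a description. The separated counts became 254 and 40 without array 2, and 193 and 98 without array 1. Leaving out an array can raise these counts but never lower them, because fewer values then bound the gap. With array 4 left out, separation means only that array 3 lay outside the untreated pair.

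The upward genes were mostly larger in array 3. Of the 118, 110 differed more from the untreated mean in array 3 and 8 more in array 4, with medians of 2.13 in array 3 and 0.91 in array 4. In 20 of them the PE arrays lay within 0.5 of each other, among these Myh7, Aldh1a2, Il33, Clec4n, Lcn2, Hspa1a, Mybpc2 and S100a4. Of the 21 downward genes, 15 were lower in array 3, with medians of -1.40 and -0.87, and in 12 the PE arrays lay within 0.5 of each other.

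**Figure D1:**
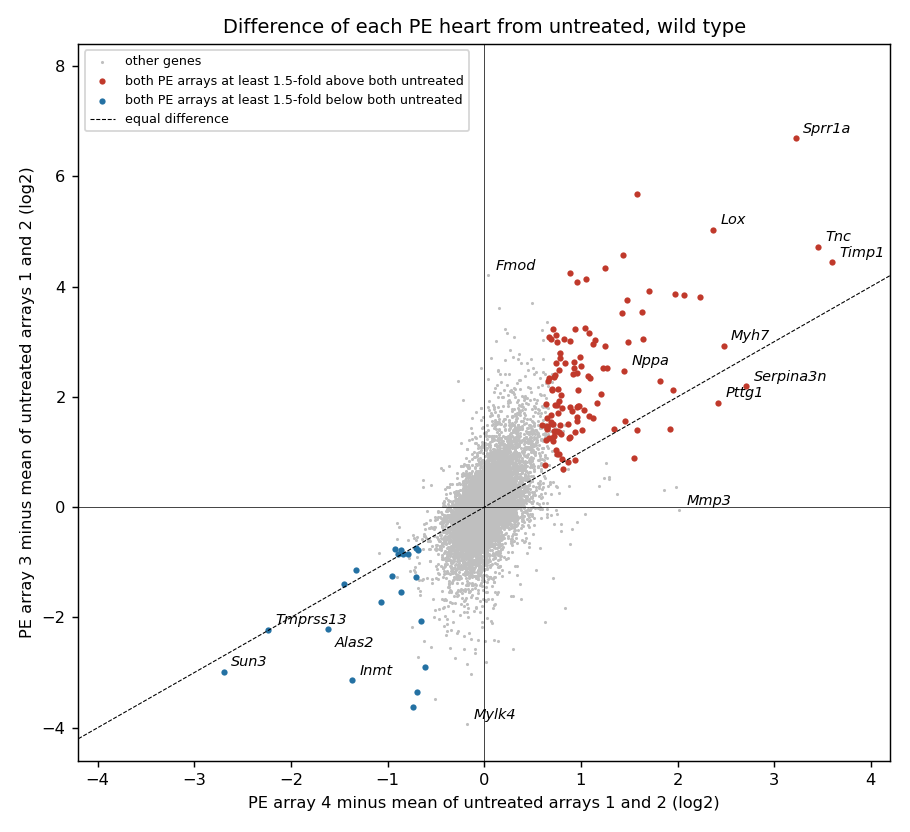
Each point is 1 of 19938 genes. The horizontal axis gives its log2 difference in PE array 4 from the mean of untreated arrays 1 and 2, and the vertical axis the same in PE array 3. Red marks the 118 genes separated upward by at least 1.5-fold and blue the 21 separated downward. Most red points lie above the dashed line of equal differences, and both axes use the same untreated arrays.

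Fetal and stress genes of heart muscle lay higher with PE. Myh7 encodes beta myosin heavy chain, the slow motor of the fetal mouse ventricle, and was read by probe set 10419934. Its value was 8.29 and 8.52 in the untreated arrays and 11.33 and 10.89 in PE arrays 3 and 4. Both PE hearts lay far above both controls and close to each other. Myh7 rose by 2.70 (SE 0.17, 6.51-fold, limma adjusted p = 0.0279). The call was lost without array 1, 2, 5, 6, 7 or 8. The Myh7 difference was 2.48 without array 3 and 2.93 without array 4. Those fits leave 1 wild-type PE array, which adds nothing to the estimate of the spread, so no call is read from them. The call was also lost in a fit of the 4 wild-type arrays alone (limma adjusted p = 0.533) and with all rows of the value table tested (0.0824). Its adult counterpart Myh6, alpha myosin heavy chain, read 13.55 and 13.55 untreated and 13.06 and 13.51 with PE, so that array 4 lay near the controls. These genes are close in sequence, and whether their probes cross-react was not tested.

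Of 22 measured hypertrophy markers, 19 had positive differences and 6 were separated upward (0.592% of all genes were), with a median of 0.89 (1.24 in array 3, 0.46 in array 4) against -0.004 for all genes (-0.02 in array 3, 0.003 in array 4). Nppa, atrial natriuretic peptide, read 11.11 and 11.84 untreated and 13.95 and 12.92 with PE. The groups did not overlap, and the difference was 1.96 (SE 0.40, limma adjusted p = 0.419). Nppb, the B-type peptide, read 10.69 and 11.30 against 12.21 and 11.47, with array 4 only just above the higher control. Ankrd1, a titin-binding ankyrin repeat protein of stretched muscle, stood at 12.41 and 12.68 untreated and 13.23 and 13.37 with PE. Here array 4 was the higher of the PE hearts, and the spread within each group was small (difference 0.75, SE 0.12, limma adjusted p = 0.419). Rcan1, the feedback inhibitor of calcineurin, read 10.01 and 10.08 against 11.56 and 10.74, and Acta1, skeletal alpha-actin, 10.81 and 11.12 against 12.37 and 11.62. For both, array 3 was the highest of the 4. Mybpc2, the fast skeletal isoform of myosin-binding protein C, read 7.62 and 7.69 against 8.92 and 8.55, with PE hearts close to each other. For 19 adult sarcomere genes the median was -0.03, with 5 higher and 4 lower in both PE arrays, near the shares over all genes of 22.7% and 23.5%, and 0 separated in either direction.

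**Figure D2:**
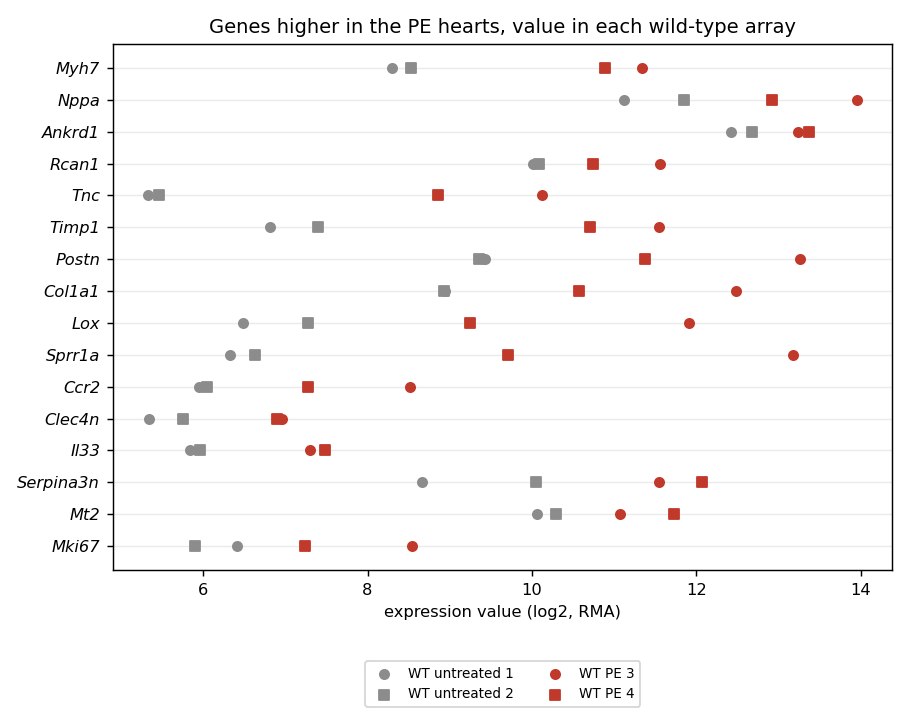
Log2 RMA values of 16 genes in the 4 wild-type arrays, grey for untreated and red for PE, circles for arrays 1 and 3 and squares for arrays 2 and 4. For each of the 16 the red points lie right of the grey points. Array 4 exceeds array 3 for Ankrd1, Il33, Serpina3n and Mt2.

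Promoter windows of 4 of these genes are shown because these genes carry the fetal, stress and matrix differences, and the motifs searched are known from cardiac or growth-induced promoters. The windows run from 250 to 1 bases before the start, read in the direction of transcription, and were taken from RefSeq with assembly GRCm38.p6. Capitals mark matches to 6 motifs searched on both strands: the TATA box TATAAA, the AP-1 site TGANTCA, the MCAT element CATTCC, the GATA site AGATAA, the SMAD element CAGACA and the CArG box. For Myh7, which has more than 1 listed start, the upstream start is shown. The windows lie at chr14:54994627-54994876 (minus strand) for Myh7, chr4:148000472-148000721 (plus strand) for Nppa, chr19:36119845-36120094 (minus strand) for Ankrd1 and chrX:20869916-20870165 (plus strand) for Timp1, the metalloproteinase inhibitor described next.
Myh7: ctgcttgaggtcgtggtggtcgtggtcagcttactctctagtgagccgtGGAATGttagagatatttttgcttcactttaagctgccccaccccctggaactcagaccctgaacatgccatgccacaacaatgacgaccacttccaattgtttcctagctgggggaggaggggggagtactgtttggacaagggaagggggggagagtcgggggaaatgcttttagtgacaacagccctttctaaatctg
Nppa: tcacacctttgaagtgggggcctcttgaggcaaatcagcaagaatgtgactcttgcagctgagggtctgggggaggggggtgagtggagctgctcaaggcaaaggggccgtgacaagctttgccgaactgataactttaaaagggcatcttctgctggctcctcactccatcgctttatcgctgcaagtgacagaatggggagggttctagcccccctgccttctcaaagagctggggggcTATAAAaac
Ankrd1: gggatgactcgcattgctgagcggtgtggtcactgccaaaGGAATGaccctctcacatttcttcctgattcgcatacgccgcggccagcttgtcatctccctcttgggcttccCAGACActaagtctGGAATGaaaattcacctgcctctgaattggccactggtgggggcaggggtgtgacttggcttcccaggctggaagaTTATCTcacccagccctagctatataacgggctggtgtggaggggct
Timp1: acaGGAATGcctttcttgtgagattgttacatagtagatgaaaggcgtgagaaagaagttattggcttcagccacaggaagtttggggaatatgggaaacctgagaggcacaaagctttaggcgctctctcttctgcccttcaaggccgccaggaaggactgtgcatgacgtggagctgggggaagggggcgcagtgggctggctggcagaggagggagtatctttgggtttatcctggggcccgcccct
The MCAT element, written GGAATG on the other strand, was found in the shown windows of Myh7 and Timp1. It was found at 2 places in that of Ankrd1, which also held a GATA match and a SMAD match. The window of the downstream Myh7 start (chr14:54994550-54994799) held 0 matches to the 6 motifs, so the Myh7 match depends on the start chosen. The Nppa window held a TATA match. Promoters were listed for 15614 of the 19938 genes and for 86 of the 118 separated upward. Of 107 promoters of those 86 genes, 18.7% held an MCAT match, 11.2% an AP-1 match, 22.4% a TATA match, 20.6% a SMAD match, 8.41% a GATA match and 2.80% a CArG box. Over all 19177 promoters these shares were 11.4%, 6.04%, 10.5%, 14.9%, 8.45% and 1.26%. For the 21 genes separated downward, 18 promoters of 17 genes were listed. MCAT, TATA and GATA matches each lay in 16.7% of them (3 promoters each), a SMAD match in 5.56%, and AP-1 and CArG matches in 0. In the upward set the GATA share was near that of all promoters, and the share of every other motif was higher. In the downward set no motif lay in more than 3 promoters. None of these shares was tested. A match of letters is a description and not a bound site, and a window without one says only that these letters are absent from it.

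Matrix genes were among those with the largest differences. All 18 collagen genes had positive differences (median 1.18) and 7 were separated upward. Over all 19938 genes, 9759 had positive differences and 0.592% were separated upward. The median was 1.88 in array 3 and 0.46 in array 4. Col1a1, a chain of fibrillar collagen I, read 8.95 and 8.93 untreated and 12.48 and 10.57 with PE, and Col3a1, of collagen III, 8.65 and 8.55 against 11.65 and 10.24. Col8a1, of the short-chain collagen VIII, read 8.41 and 8.30 against 12.10 and 9.83. In each, the controls nearly coincided and array 3 exceeded array 4, which itself lay well above the controls. Col1a1 differed by 2.59 (SE 0.63, limma adjusted p = 0.419).

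Among 29 matricellular and glycoprotein genes, 28 were positive and 10 were separated upward (0.592% of all genes were). Their median was 1.22, being 1.97 in array 3 and 0.54 in array 4. Tnc, tenascin C, a glycoprotein of injured tissue, had the widest gap of all genes, with 5.33 and 5.47 untreated and 10.12 and 8.86 with PE (difference 4.09, SE 0.65, limma adjusted p = 0.419). Thbs1 and Thbs4 encode adhesive thrombospondins. Thbs1 read 7.46 and 7.81 against 11.44 and 9.87, and Thbs4 6.95 and 6.91 against 10.84 and 8.64. Postn, periostin of activated fibroblasts, read 9.43 and 9.35 against 13.26 and 11.37, and Fn1, fibronectin, 9.67 and 9.39 against 13.38 and 11.60. All of these showed the order array 3, array 4, controls. Ccn2, connective tissue growth factor, read 9.85 and 10.49 against 13.17 and 11.66. Sprr1a, a small proline-rich stress protein outside that list, had the largest difference of all genes, at 4.96 (SE 1.14, limma adjusted p = 0.419). It read 6.33 and 6.64 untreated, 13.17 in array 3 and 9.71 in array 4.

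Enzymes that remodel or crosslink matrix had smaller medians. Of 22 proteases and inhibitors, 19 were positive (median 0.54) and 4 separated upward (0.592% of all genes were). Timp1, whose promoter is shown above, read 6.81 and 7.40 untreated and 11.55 and 10.71 with PE, a difference of 4.02 (SE 0.57, limma adjusted p = 0.419), with array 3 above array 4 and both above the controls. Mmp14, a membrane-bound collagenase, read 7.94 and 7.85 against 10.50 and 8.64. All 17 collagen-processing and crosslinking genes were positive, and 4 were separated upward (0.592% of all genes). Their median was 0.82, being 1.32 in array 3 and 0.29 in array 4. Lox, lysyl oxidase, read 6.48 and 7.27 against 11.91 and 9.24, and its relative Loxl3 6.70 and 6.72 against 9.71 and 7.47. The prolyl hydroxylase subunit gene P4ha3 read 5.84, 5.69, 10.02 and 6.66 in arrays 1 to 4, so that its difference came mostly from array 3.

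Differences were smaller in the lists of matrix-inducing signals and of fibroblast markers. Of 24 genes of TGF-beta and bone morphogenetic signalling, 18 were positive (median 0.21) and 2 separated upward (0.592% of all genes were). Tgfb2, a TGF-beta ligand, read 7.32 and 7.17 against 10.48 and 8.19, and Inhba, the activin A subunit, 6.51 and 6.43 against 7.74 and 6.91. Fstl1, a secreted glycoprotein also on that list, read 9.84 and 9.85 against 12.81 and 10.97. Of 20 fibroblast markers, 17 were positive (median 0.29) and 4 separated upward (0.592% of all genes). Cthrc1, a secreted protein of activated fibroblasts, read 6.22 and 6.16 against 10.77 and 7.63. The mean level of the 20 fibroblast markers was 8.32 and 8.29 in the untreated arrays and 9.22 and 8.61 in arrays 3 and 4. Its part in the matrix results was not tested. Of 18 integrins, 14 were positive (median 0.29), and Itgb5 read 10.22, 10.27, 12.03 and 10.67, with 0 of the 18 separated.

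**Figure D3:**
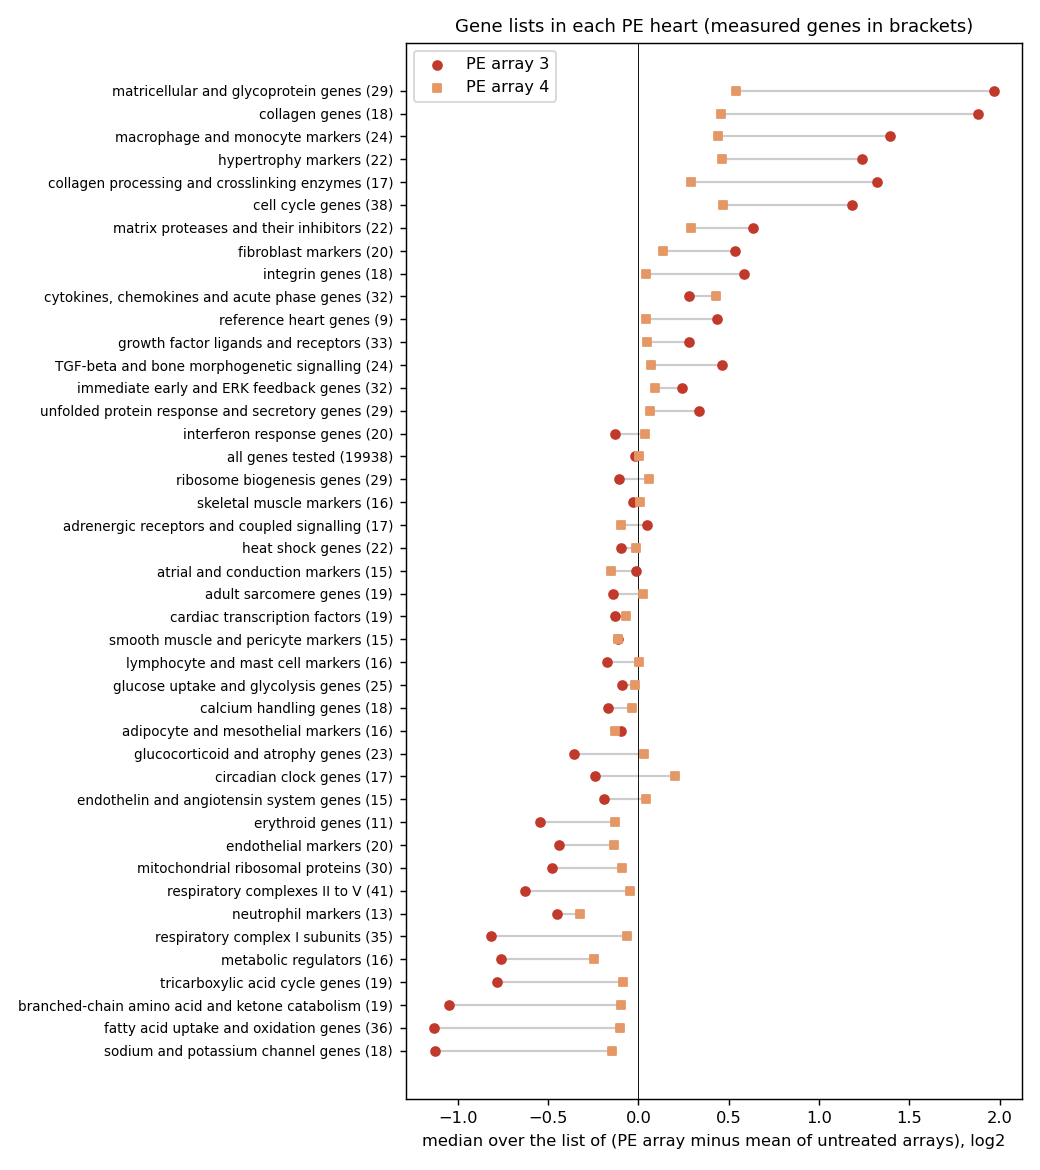
Median log2 difference from the mean of the 2 untreated arrays over each gene list, with red circles for PE array 3, orange squares for array 4 and the measured members in brackets. The lists are ordered by their median difference. Matrix, macrophage, hypertrophy and cell cycle lists lie to the right, with array 3 further out. Mitochondrial, fatty acid and channel lists lie to the left, further out for array 3 and closer to 0 for array 4.

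Macrophage and monocyte markers lay higher in both PE hearts. Of 24, 23 had positive differences, 22 were higher in both PE arrays (22.7% of all genes were) and 4 were separated (0.592% of all genes), with a median of 0.90 (1.39 in array 3, 0.44 in array 4). Their mean level was 7.39 and 7.61 untreated against 8.85 and 8.04. Ccr2, the chemokine receptor of recruited monocytes, read 5.95 and 6.04 against 8.52 and 7.27, while Adgre1, a surface receptor of macrophages, read 8.16 and 8.26 against 9.94 and 8.84. Clec4n, dectin-2 of myeloid cells, was 5.34 and 5.76 untreated and almost equal in the PE hearts at 6.96 and 6.90 (difference 1.38, SE 0.19, limma adjusted p = 0.419). Lymphocyte and mast cell markers, 16 in all, had a median of -0.08, and 1 of them lay higher and 5 lower in both PE arrays, against 22.7% and 23.5% of all genes.

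In the list of cytokine and acute phase genes, array 4 had the larger median. Of 32, 25 were positive and 4 separated upward (0.592% of all genes were). Their median was 0.28, being 0.28 in array 3 and 0.43 in array 4. Serpina3n, a serine protease inhibitor of the acute phase, read 8.66 and 10.05 untreated and 11.55 and 12.07 with PE (difference 2.45, SE 0.58, limma adjusted p = 0.419). Lcn2, lipocalin 2, read 6.76 and 7.99 against 9.66 and 9.19. The higher control in both cases was array 2, the array with the high neutrophil genes, whose part was not tested. Il33, an alarmin cytokine, read 5.84 and 5.96 against 7.30 and 7.48, and the metal-binding metallothionein gene Mt2 10.06 and 10.30 against 11.07 and 11.73. The controls lay close together for Il33, and array 4 was the highest of the 4 for both. Interferon response genes, 20 in all, had a median of 0.006 and 0 separated.

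Genes of dividing cells lay higher in both hearts. Of 38 cell cycle genes, 37 were positive, 32 were higher in both PE arrays (22.7% of all genes were) and 9 were separated (0.592% of all genes), with a median of 0.81 (1.18 in array 3, 0.47 in array 4). Mki67, the proliferation antigen, read 6.41 and 5.91 against 8.54 and 7.24, and Top2a, the topoisomerase of dividing cells, 5.85 and 5.62 against 7.86 and 6.70. Anln, anillin of the cleavage furrow, read 5.16 and 5.15 against 7.68 and 6.38. Pttg1, securin, had another pattern: 7.65 and 7.68 untreated and 9.56 and 10.09 with PE, with array 4 higher (difference 2.16, SE 0.18, limma adjusted p = 0.0962). In S105A hearts it was already 10.26 and 10.38 untreated and read 9.83 and 9.52 with PE, so the wild-type controls were the 2 low arrays among 8.

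Among the 21 genes separated downward, the widest gap was that of Sun3, a nuclear envelope protein best known from male germ cells. It read 8.17 and 7.92 untreated and 5.06 and 5.35 with PE (difference -2.84, SE 0.55, limma adjusted p = 0.419). Tmprss13, a membrane serine protease, read 8.82 and 8.97 against 6.67 and 6.66, with PE hearts at the same level. The S105A arrays, which had no part in choosing these genes, did not keep such a split: Sun3 read 6.75 and 5.48 untreated and 5.12 and 6.63 with PE, and Tmprss13 6.74 and 8.35 against 7.41 and 7.60. Fabp7, a fatty acid-binding protein, read 7.29 and 7.17 against 6.46 and 6.30 in wild type. Gpr75, an orphan-type receptor gene, read 7.31 and 7.72 against 6.38 and 6.19. Both were already low in untreated S105A hearts, at 6.12 and 6.44 for Fabp7 and 6.64 and 6.33 for Gpr75. Egln3, an oxygen-sensing prolyl hydroxylase, had tight groups, 11.51 and 11.56 against 10.69 and 10.64 (difference -0.87, SE 0.13, limma adjusted p = 0.419). Inmt, a methyltransferase of small amines, read 8.20 and 8.48 against 5.20 and 6.97, with array 3 much the lower.

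Erythroid genes were part of the downward set. Of 11, 10 were negative (median -0.28, -0.54 in array 3 and -0.13 in array 4), 9 lay lower in both PE arrays (23.5% of all genes did) and 2 were separated (0.105% of all genes). Alas2, the erythroid enzyme that starts haem synthesis, read 8.89 and 8.58 untreated and 6.52 and 7.11 with PE, a difference of -1.92 (SE 0.20, limma adjusted p = 0.159). Tent5c, a poly(A) polymerase listed with the erythroid genes, read 8.25 and 7.86 against 6.65 and 6.60 (limma adjusted p = 0.158), and Slc4a1, the band 3 anion exchanger of red cells, 7.09 and 7.14 against 6.37 and 6.56. The mean level of the 11 genes was 6.97 and 6.93 untreated and 6.34 and 6.52 with PE.

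**Figure D4:**
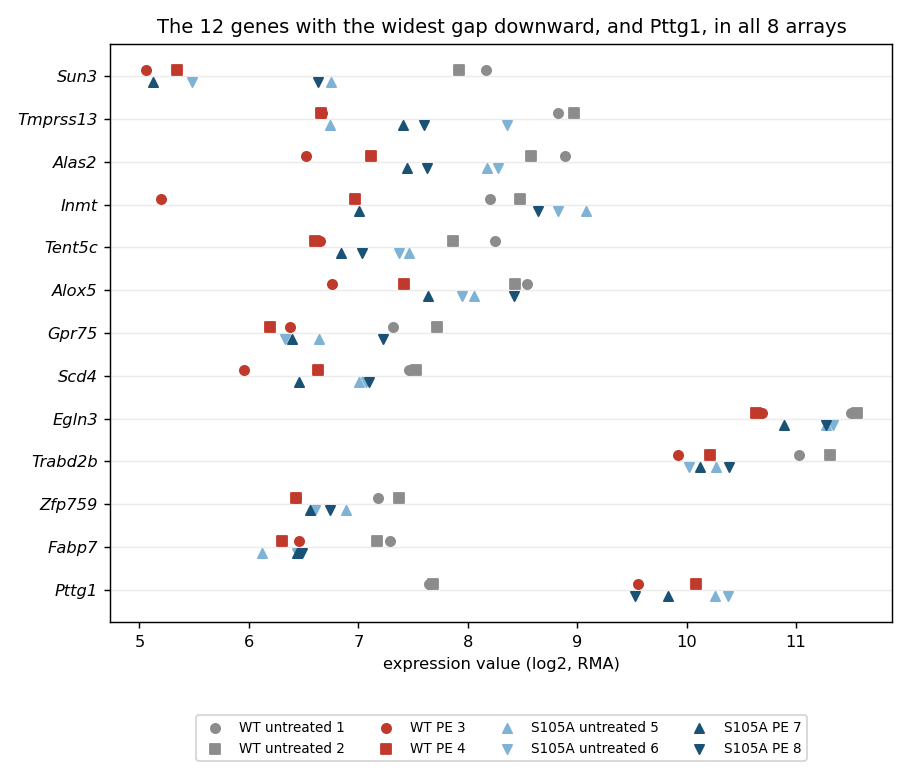
Log2 RMA values of the 12 genes with the widest gap downward in wild type, and of Pttg1, in all 8 arrays. Grey is wild type untreated, red wild type with PE, light blue S105A untreated and dark blue S105A with PE. In wild type every red point of the 12 lies left of the grey points. The S105A groups overlap for 9 of the 12, the exceptions being Alas2, Inmt and Tent5c, and for Pttg1 the light blue points lie far right of the grey.

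Most energy metabolism genes lay below the controls in both PE hearts, by much less in array 4 than in array 3, and 0 were separated in any of these lists. All 35 complex I subunits had negative differences (median -0.44, -0.81 in array 3 and -0.06 in array 4), as had all 19 tricarboxylic acid cycle genes (median -0.44, -0.78 and -0.08). Of 41 genes of complexes II to V, 39 were negative (median -0.32, -0.63 and -0.05). Fatty acid uptake and oxidation genes, 35 of 36 negative, had a median of -0.61 (-1.13 in array 3, -0.10 in array 4). Branched-chain amino acid and ketone catabolism genes, 18 of 19 negative, had -0.55, -1.05 and -0.10. Lower than both controls in both PE arrays were 24 of the 35, 18 of the 19, 27 of the 41, 26 of the 36 and 11 of the 19 genes of these lists, in the order given, against 23.5% of all genes. Ndufs5, a complex I subunit, read 9.28, 9.13, 8.20 and 8.86, and Mlycd, malonyl-CoA decarboxylase, 9.35, 9.32, 7.69 and 9.10. Ppara, a nuclear receptor for fatty acids, read 9.87 and 9.97 against 8.05 and 9.41, with a distinctly lower level in array 3. Ppargc1a, the PGC-1 alpha coactivator, read 10.45 and 10.62 untreated, 8.99 in array 3 and 10.55 in array 4, between the controls. Pdk4, which restrains glucose oxidation, had the same shape at 12.22 and 11.96 against 10.65 and 12.07. Of 25 glucose uptake and glycolysis genes, 9 were positive, with a median of -0.09.

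Channel genes also had the larger differences in array 3. Of 18 sodium and potassium channel genes, 16 were negative, with medians of -1.12 in array 3 and -0.15 in array 4. In both PE arrays 11 lay lower and 1 higher, against 23.5% and 22.7% of all genes, and 0 were separated. Kcnv2, a modifier subunit of potassium channels, read 7.74, 7.57, 5.98 and 7.25. Kcnj8, the pore of a metabolically gated potassium channel, was listed with the smooth muscle and pericyte markers instead. It read 9.81, 9.73, 8.69 and 9.42. Calcium handling genes had a median of -0.12 over 18. Atp2a2, the sarcoplasmic calcium pump, read 13.93 and 13.88 untreated and 13.44 and 13.88 with PE, and its inhibitor Pln 13.86, 13.78, 13.38 and 13.82. For Pln array 4 lay between the controls and for Atp2a2 just below them, and array 3 was the lowest for both. Endothelial markers were negative in 18 of 20 (median -0.30), and 12 of the 20 were lower in both PE arrays, against 23.5% of all genes. Tie1, an endothelial receptor kinase, read 9.43 and 9.24 against 8.81 and 9.06, and Flt1, a VEGF receptor, 9.96 and 10.13 against 9.22 and 9.81. Gata4 itself read 10.14, 10.05, 10.16 and 9.92.

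Genes at a distance from the controls in 1 PE array only show how far arrays 3 and 4 differed. Whether this lay in the animals or in the handling of 1 sample was not tested. In array 3, Fmod, the collagen-binding fibromodulin, read 10.61 against 6.44 in array 4 and 6.33 and 6.47 in the controls. Cnn1, calponin of smooth muscle, read 10.46 against 7.67, 7.30 and 7.43. On the lower side, Mylk4, a muscle kinase gene, read 6.80 against 10.55, 10.71 and 10.76. Hopx, a homeodomain-only cardiac cofactor, read 6.85 against 9.40, 9.55 and 9.44. In array 4, Mmp3, stromelysin, read 8.08 against 6.01 in array 3 and 6.06 and 6.07 in the controls. Ptx3, a pattern-recognition protein of inflammation, read 6.34 against 5.21, 4.87 and 5.06, and Hp, haptoglobin, 6.92 against 5.75, 5.54 and 6.22. Array 3 had the larger excursions, and those of array 4 included acute phase and inflammatory genes. Only 2 genes, Ciart and C7, lay at least 1.5-fold outside the untreated pair in opposite directions. Ciart, a clock repressor, read 8.29 and 8.22 untreated, 6.96 in array 3 and 8.97 in array 4, and C7, a terminal complement component, 8.76, 8.70, 6.64 and 9.36.

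Lists of adrenergic signalling, early response and general stress genes had medians between -0.14 and 0.20. Of 17 adrenergic receptor and coupled signalling genes measured, 7 were positive and 10 negative, with a median of -0.02. Adra1b, an alpha-1 receptor, read 8.45 and 8.45 untreated and 7.16 and 7.95 with PE (difference -0.90, SE 0.29, limma adjusted p = 0.419), lower in both PE hearts. Of 32 immediate early and ERK feedback genes, 23 were positive (median 0.20) and 0 separated. Etv5, an ETS factor induced by ERK signals, read 7.21 and 6.90 against 8.36 and 7.70, and Atf3, a stress-induced factor, 7.27 and 7.27 against 8.13 and 7.84. The PE hearts were above the controls for both. The heat shock list had a median of -0.02 over 22 genes, with Hspa1a, the inducible HSP70 that has a near-identical copy in the genome, at 7.80 and 7.76 against 8.64 and 8.72. Circadian clock genes had a median of -0.14, being -0.24 in array 3 and 0.20 in array 4.

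The S105A arrays gave a separate set of PE and control hearts for the same genes. Of the 118 genes separated upward in wild type, 108 were higher in both S105A PE arrays than in both S105A controls, against 20.2% of all genes, and 117 had a positive difference. Of the 21 separated downward, 9 were lower in both S105A PE arrays, against 25.2% of all genes, and 17 had a negative difference. Tnc read 5.42 and 5.33 untreated and 10.87 and 8.89 with PE in S105A, and Myh7 8.75 and 8.63 against 10.71 and 10.48. Array 7 exceeded array 8 in both, and 171 genes (0.858%) differed by at least 2-fold between those arrays. The difference between the PE effects of the genotypes passed an adjusted p of 0.05 by limma for 0 genes and had an unadjusted p under 0.05 for 483.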

How the data were processed

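RNA of 8 hearts was labelled with biotin and hybridized to 1 Affymetrix array each, per the labels' protocols. The deposited values are log2 expression values made with RMA, per the submitters' processing notes, without a stated version. RMA aligns the arrays' intensity distributions and would hide a shift common to most genes. That the scale is log2 was inferred from the range of 2.63 to 14.45. Of 35557 rows, 21789 had exactly 1 symbol in the platform annotation, which left 19938 genes.

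Differences, SEs and two-sided p values came from limma 3.58.1 in R 4.3.3, with 1 coefficient per group over all 8 arrays (lmFit, eBayes), 4 residual and 2.74 prior degrees of freedom, adjusted by Benjamini-Hochberg over all genes. On simulated data for the wild-type PE effect, 78 of 100 genes changed 2-fold and 95 of 100 changed 4-fold were recovered, with 8 false calls. The simulation gave each gene the same spread in every group. In the data, the SD of the difference over all genes was 0.417 between arrays 3 and 4, against 0.175 between arrays 1 and 2. These recovery counts therefore do not carry over to the data. P values set each difference against a spread pooled over the 4 groups, although arrays 3 and 4 differed more than the other pairs did. With 1 array per animal, variation between animals and between arrays cannot be told apart. The genes and the 42 lists were chosen with earlier results of these data known. Genes were named by a rule: those past the adjusted threshold, the 12 widest gaps in each direction, up to 6 per direction in 1 PE array only, up to 3 members of each list, and a preset group of heart genes (of which Adra1a and Adrb1 were not analysed here); Tnnt2 and Actc1 are fixed cardiomyocyte markers. Of the genes named, Retnlg, Ciart and C7 were chosen after their values were seen. Promoter windows came from RefSeq. Alternatives covered the gene filter, probe set choice, normalization, variance model, array weights, arrays fitted and thresholds; leaving out arrays 3 and 7 together was added after seeing the data.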

Additional observations from a re-analysis of the deposited data

Results flagged for a closer look

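Pttg1 lay higher with PE in wild type and lower in S105A, every array of each group moving its own way. Its difference was 2.16 in wild type and -0.64 in S105A, and the S105A difference minus the wild-type difference was -2.80 (limma adjusted p = 0.336 for that term, so the difference did not pass). The untreated S105A arrays, rather than the PE arrays, were the highest of the 8.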

How the results depend on the processing

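The count of 1 gene at the adjusted threshold was 0 with all rows of the table or with the 4 wild-type arrays alone, 2 with array weights, 58 without arrays 3 and 7, and 0 to 3541 with 1 array left out. The 95 higher genes became 148 with all rows, 153 with array weights, 62 with the wild-type arrays alone, 206 without arrays 3 and 7, 500 at an unadjusted p under 0.05, and 42 to 1354 with 1 array left out. The 68 lower genes became 148 with all rows, 30 with the wild-type arrays alone, 44 without arrays 3 and 7, 215 at an unadjusted p under 0.05, and 30 to 1181 with 1 array left out. The 118 genes separated upward became 34 at a 2-fold gap, 4525 with any gap, and 146 to 1395 with 1 array left out, and the 21 separated downward became 6, 4694, and 30 to 1072. Leaving out an array cannot lower a separated count, so those ranges do not measure stability. Myh7 stayed at 2.70 with all rows or the wild-type arrays alone, where its call was lost. The Myh7 difference ran from 2.48 to 2.93 with 1 array left out. Other filters, probe set means, quantile normalization and variance models kept its call.

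Of 83 other genes named, 7 changed sign with 1 array left out, over these ranges: C7 -2.09 to 0.63, Ciart -1.29 to 0.71, Gata4 -0.17 to 0.071, Hp -0.13 to 1.04, Mmp3 -0.055 to 2.02, Ppargc1a -1.54 to 0.019 and Retnlg -2.37 to 0.20. Without array 4, 66 of the 83 passed the adjusted threshold; the remaining PE array then has no partner and is assumed to vary like the other groups. No paired analysis was possible because the individuals are numbered 1 to 8 without a shared number. With 2 arrays a group and no detection calls, low values lie near an unmeasured floor, and small differences cannot be separated from the spread between animals.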

Other observations

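Of 29 genes of the unfolded protein response and secretory pathway, 21 were positive and 1 was separated upward (0.592% of all genes were). Their median was 0.17, being 0.34 in array 3 and 0.06 in array 4. Kdelr3, a receptor that returns proteins to the endoplasmic reticulum, read 7.67 and 7.51 untreated and 9.74 and 8.29 with PE, the highest being array 3. Of 33 growth factor ligands and receptors, 21 were positive (median 0.22) and 0 separated. Hbegf, a membrane-anchored ligand of the EGF receptor, read 8.26 and 8.54 against 10.57 and 8.88, and Vegfd, a lymphatic growth factor, 6.79 and 6.88 against 7.90 and 7.43. Of 15 endothelin and angiotensin system genes, 3 were positive (median -0.14). Ace, which makes angiotensin II, read 9.50 and 9.78 against 10.85 and 9.88, array 4 lying just above the higher control. Of 9 reference heart genes, taken as stable genes, 7 were positive (median 0.24, 0.43 in array 3 and 0.04 in array 4).

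Metabolic regulators were negative in 15 of 16 (median -0.44) and mitochondrial ribosomal protein genes in 28 of 30 (median -0.31). Ribosome biogenesis genes had a median of -0.01 over 29, and cardiac transcription factors -0.07 over 19. Glucocorticoid and atrophy genes had a median of -0.14 over 23, with -0.36 in array 3 and 0.03 in array 4. Markers of cells that a heart sample could also hold had medians of -0.08 over 15 smooth muscle and pericyte, -0.12 over 16 adipocyte and mesothelial, -0.03 over 15 atrial and conduction and -0.01 over 16 skeletal muscle markers. The 13 neutrophil markers lay lower, with a median of -0.36 (11 of 13 negative), and array 2 was the untreated array in which their mean was high. The atrial list holds Nppa. Krt8, a keratin of mesothelium, read 6.38 and 6.23 against 7.16 and 6.77, while Upk3b, a mesothelial membrane protein, read 7.27 and 7.15 against 6.73 and 6.59, higher and lower with PE respectively.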
